A study of Homo sapiens with 9 samples.

Results

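The long arm of chromosome 5 (5q) held 2401 of the 60345 peaks called by chromatin immunoprecipitation sequencing (ChIP-seq) in this series, or 3.98%. Peaks were taken as members when their summit, the highest point of a peak, lay on hg19 chromosome 5 at or beyond position 49500000. The short arm (5p), which served as the comparison, held 936 peaks with summits up to position 46400000, and no summit lay between these bounds. All libraries came from the 786-O line, which was established from a human clear cell renal carcinoma, and every condition had 1 library. Binding of p65, the RELA subunit of NF-κB, was profiled in cells treated with siTEAD, in their control, in cells treated with the compound XMU-MP-1 and in their vehicle control. TEAD was profiled in cells treated with XMU-MP-1, and the protein of that family which the antibody binds is not named in the labels. The title of the siTEAD sample reads siTEAD4, while the identifiers in its peak list carry the name p65_Vert, which no label holds, so the list is called "labelled siTEAD4" below.

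NF-κB is a family of dimeric transcription factors that inflammatory signals release into the nucleus, where p65 binds short κB sites in promoters and enhancers. TEAD proteins bind DNA and recruit the coactivators YAP and TAZ, which the Hippo kinases keep out of the nucleus; XMU-MP-1 inhibits the Hippo kinases MST1 and MST2. Gain of 5q is among the commonest chromosome changes of clear cell renal carcinoma. The arm carries the autophagy adaptor gene SQSTM1, the NF-κB regulator gene TNIP1 and the cytokine genes around IRF1. No peak was assigned to a gene here, because the gene tables used are on another genome build than the peaks.

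There is no replicate check on any difference between conditions, and no p-value is given. Intervals are 95% intervals; they hold counting error alone and take each peak as independent of the others. The lists give no read totals. Fold enrichments are the authors' own values per peak and are relative to the library they come from, so folds set side by side between lists show no change.

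By list, 5q held 81 of 1813 peaks labelled siTEAD4, against 595 of 15465 control peaks. It held 82 of 1649 XMU-MP-1 peaks, against 687 of 17958 vehicle peaks, and 956 of 23460 TEAD peaks. These are 4.47%, 3.85%, 4.97%, 3.83% and 4.07% of the lists in the same order. The 5p counts were 32, 245, 28, 267 and 364 peaks in that order, or 1.77%, 1.58%, 1.70%, 1.49% and 1.55% of the lists. Both arms contributed a larger share of each short p65 list than of its long counterpart, so this was not particular to 5q.

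Peak density on 5q was near or below that on 5p, and was in no list clearly above it. The 131.4 Mb of 5q held 0.616 peaks per Mb (0.489 to 0.766, exact Poisson) in the list labelled siTEAD4 and 4.53 per Mb (4.17 to 4.91) in the control list. The XMU-MP-1 list had 0.624 peaks per Mb (0.496 to 0.775) on 5q and the vehicle list 5.23 (4.84 to 5.63). TEAD had 7.27 peaks per Mb (6.82 to 7.75) on 5q. Over the 46.4 Mb of 5p the densities were 0.690, 5.28, 0.603, 5.75 and 7.84 peaks per Mb in the same order of lists. The ratio of 5q to 5p was 0.857 (0.738 to 0.999) in the control list, whose interval ended just below 1. For peaks with a −log10 q of at least 5 it was 0.777 (0.656 to 0.923), and at 10 or more 0.842, with an interval (0.671 to 1.06) that reached 1. It was 0.894 (0.587 to 1.39) in the list labelled siTEAD4, 1.03 (0.666 to 1.65) with XMU-MP-1, 0.908 (0.788 to 1.05) with vehicle and 0.927 (0.821 to 1.05) for TEAD, and all 4 of these intervals included 1. At a −log10 q of at least 5 the vehicle ratio was 0.837 (0.711 to 0.987). Among the 41 arms compared, ordered from the densest, 5q was at place 23 in the list labelled siTEAD4, 18 with XMU-MP-1 and 32 in each of the other 3 lists.

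**Figure D1:**
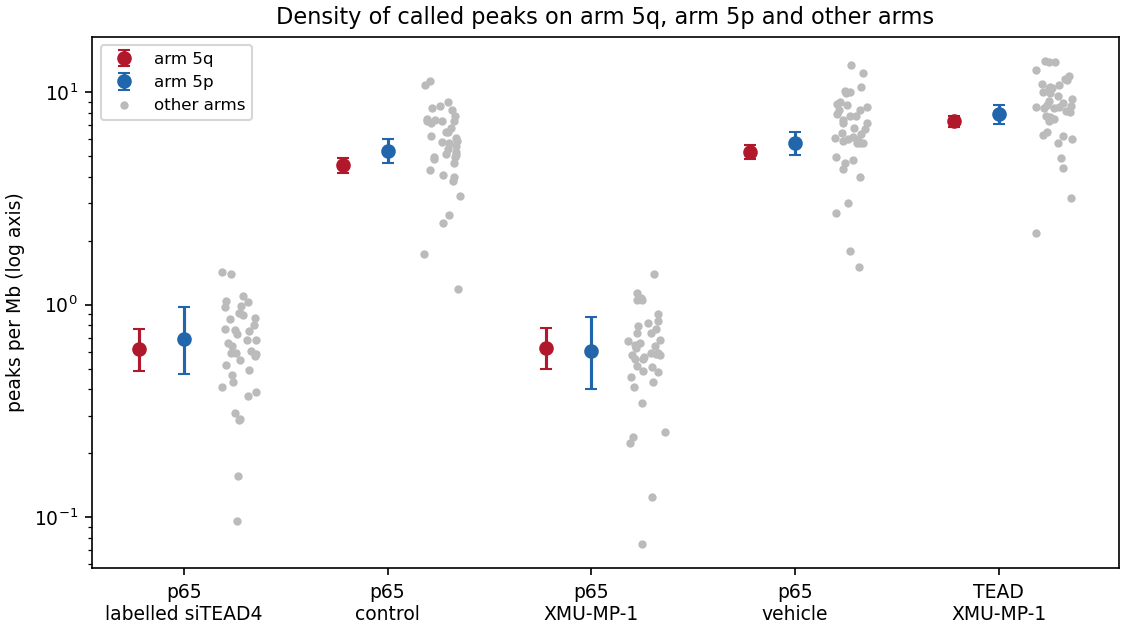
Peaks per Mb (log axis) of each list on arm 5q, arm 5p and 39 other arms. Red and blue points have exact 95% Poisson intervals, and grey points are single arms. In every list 5q lies within the range of the other arms, and its interval overlaps that of 5p.

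The average over the arm covered an uneven spread. The 50.5 Mb of 5q nearest the centromere, to position 100 Mb, held few peaks, and the 80.9 Mb beyond it held most of them. The 2 stretches were divided at 100 Mb after the local background described below had been seen. Beyond 100 Mb there were 70, 478, 71, 543 and 730 peaks in the lists labelled siTEAD4, control, XMU-MP-1, vehicle and TEAD. To 100 Mb there were 11, 117, 11, 144 and 226 in the same order. Per Mb, the outer stretch held 3.97 times (2.09 to 8.32) as many peaks as the inner one in the list labelled siTEAD4 and 2.55 times (2.08 to 3.15) in the control list. It held 4.03 times (2.12 to 8.43) as many with XMU-MP-1, 2.35 times (1.95 to 2.85) with vehicle and 2.02 times (1.73 to 2.35) for TEAD. All 5 intervals lay above 1.

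The density ratios of the 2 stretches to 5p lay on different sides of 1 in all 5 lists, but not all were beyond counting error. Beyond 100 Mb, density relative to 5p was 1.12 (0.957 to 1.31) in the control list, 1.17 (1.005 to 1.36) with vehicle and 1.15 (1.01 to 1.31) for TEAD. The control interval included 1. To 100 Mb the density was 0.439, 0.496 and 0.570 times that of 5p in the same lists. Beyond 100 Mb the ratio was 1.25 (0.815 to 1.97) labelled siTEAD4 and 1.45 (0.927 to 2.34) with XMU-MP-1, and both intervals included 1. To 100 Mb these lists had 0.316 (0.144 to 0.643) and 0.361 (0.162 to 0.748). The fullest 5 Mb window of the arm, from 170 to 175 Mb, held 222 peaks over all lists, of which 4 were labelled siTEAD4, 60 were control, 6 were XMU-MP-1, 65 were vehicle and 87 were TEAD peaks.

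The local background of the peaks was higher beyond 100 Mb than to 100 Mb in every list, and in the 3 long lists, where it could be followed by window, it changed near that position. This background is the number of fragments that the peak caller expected at a summit, and it was solved for each peak from the deposited fold and p-value. Its median on 5q was 4.07, 2.20, 3.21, 2.13 and 1.87 fragments in the lists labelled siTEAD4, control, XMU-MP-1, vehicle and TEAD. On 5p it was 6.38, 3.51, 5.35, 3.19 and 2.58 in the same order, which is 1.57, 1.60, 1.67, 1.50 and 1.38 times as high as on 5q. In a ranking of the 41 arms by this median, 5p was first or second in every list and 5q between place 21 and 28.

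Set to 1 at the median of the whole list, the background beyond 100 Mb on 5q was 0.982, 1.00, 1.07, 1.01 and 1.00 in the same order of lists. To 100 Mb it was 0.607, 0.564, 0.569, 0.588 and 0.609. In 5 Mb windows with at least 5 peaks, TEAD had medians of 0.95 to 1.08 in 17 windows beyond 100 Mb and 0.58 to 0.67 in 10 windows to 100 Mb. The control list had 0.83 to 1.12 in 15 windows beyond 100 Mb and 0.56 to 0.77 in 8 windows to it. The vehicle list had 0.90 to 1.24 in 15 windows and 0.59 to 0.74 in 8. No window of one stretch reached the range of the other in these 3 lists. The lists labelled siTEAD4 and XMU-MP-1 had too few peaks to 100 Mb for a window of that size.

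The deposited values cannot give a background under the floor that the caller applies to a whole library. The 1st percentile of the background was 2.34, 1.36, 1.83, 1.25 and 1.08 fragments in the lists labelled siTEAD4, control, XMU-MP-1, vehicle and TEAD. The medians to 100 Mb of the control, XMU-MP-1 and vehicle lists were at this floor, so the step in those lists may be larger than their values show. Pileups, the fragments at the summits themselves, had medians of 28, 19.4, 24.3, 17.0 and 17.5 on 5q and of 38.5, 24.6, 34.5, 23.0 and 20.5 on 5p. Median folds ran the other way, at 5.71, 6.15, 6.16, 5.91 and 6.58 on 5q and 4.68, 5.67, 5.07, 5.67 and 5.87 on 5p. The number of copies of either arm in these cells was not measured here, and its part in the background, the pileups, the folds or the density was not tested.

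**Figure D2:**
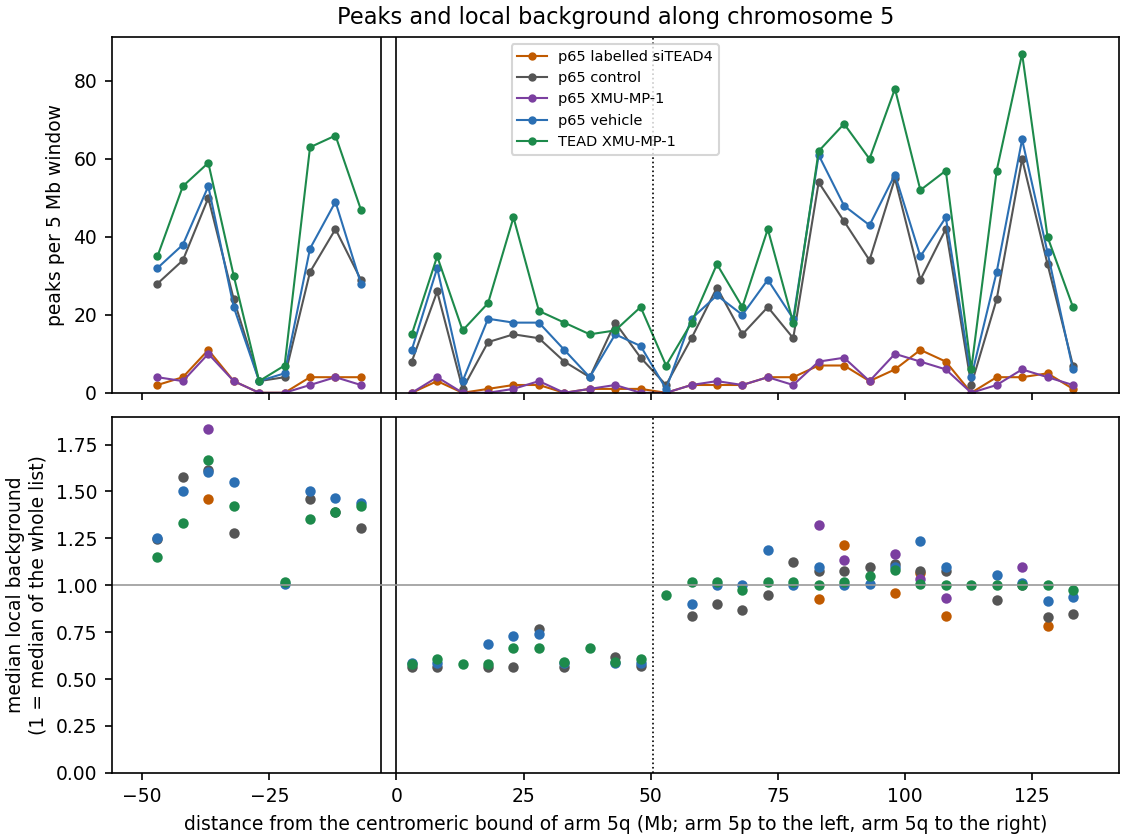
Upper panel: peaks per 5 Mb window of each list against distance from the centromeric bound of 5q; lower panel: median local background of the peaks in windows with at least 5 peaks, with 1 at the median of the whole list. Solid lines mark the bounds of 5p and 5q, the dotted line marks 100 Mb, and the window across the centromere is left out. Points to the left of the dotted line on 5q lie near 0.6, points to its right near 1, and most points on 5p above 1.25.

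Peaks nearest the bounds carried folds within the range of their arm. In the control, vehicle and TEAD lists the first 5q peaks were near or above the upper quartile of fold on 5q. That quartile was 8.91, 8.48 and 9.71 in these lists. The first 5q peak of the control list was chr5:49963464-49963836 with a fold of 8.89, at the same place as the first vehicle peak, also with 8.89. The first TEAD peak was chr5:50947307-50948079 with 11.5. The last 5p peaks had folds of 4.41 in the control list, 9.76 in the vehicle list and 5.61 in the TEAD list.

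The next comparison asked how many p65 peaks of the control and vehicle cells were still called after treatment. A kept peak is one that shared 1 bp or more with a peak called after treatment. On 5q, 77 of 595 control peaks were kept in the list labelled siTEAD4, or 12.9% (10.5 to 15.9, Wilson), against 11.2% of all control peaks. On 5p it was 30 of 245, or 12.2% (8.71 to 16.9). The difference between 5q and 5p was 0.70 percentage points (−4.61 to 5.29).

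In the XMU-MP-1 list, 76 of 687 vehicle peaks on 5q were kept, or 11.1% (8.93 to 13.6), against 8.77% of all vehicle peaks. On 5p it was 28 of 267, or 10.5% (7.36 to 14.7), and 5q and 5p differed by 0.58 points (−4.18 to 4.62). Neither treatment left a share on 5q that differed from 5p beyond counting error. Against all vehicle peaks off 5q, the share on 5q was higher by 2.38 points (0.21 to 4.98), while the same difference for control peaks was 1.78 points (−0.74 to 4.76). Without 1 region of 35.0 kb on 5q, described in the closing section, these became 1.41 points (−0.69 to 3.95) for vehicle and 0.52 points (−1.90 to 3.43) for control. The region was picked with its many kept peaks known and was taken out of 5q alone, so a lower share followed from its removal.

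Loss fell on peaks of all strengths, but far more on weak ones. Of the 62 control peaks on 5q among the strongest 10% of the whole control list by fold (12.4 and above), 42 were kept in the list labelled siTEAD4, or 67.7% (55.4 to 78.0), and on 5p 17 of 27 were, or 63.0% (44.2 to 78.5). Of the 285 control peaks below the median fold of the list, 4 were kept, or 1.40%, and on 5p 3 of 138, or 2.17%. Of the 74 vehicle peaks on 5q among the strongest 10% of their list, 44 were kept with XMU-MP-1, or 59.5% (48.1 to 69.9), and on 5p 13 of 30 were, or 43.3% (27.4 to 60.8). Below the median fold 6 of 335 were kept on 5q, or 1.79%, and 4 of 147 on 5p, or 2.72%. Kept control peaks had a median fold of 14.0 and a median length of 531 bp, against 5.76 and 277.5 bp for lost ones. Kept vehicle peaks had 13.6 and 575.5 bp, against 5.73 and 279 bp.

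The kept peaks of both treated lists were largely at the same sites. Control and vehicle lists shared 462 control peaks on 5q, or 77.6% (74.1 to 80.8) of the 595, against 79.5% in the whole list. Read from the vehicle list, 464 of 687 peaks on 5q had a control peak, or 67.5%, against 68.5% in the whole list. On 5p it was 199 of 267, or 74.5%, and 5q minus 5p was −6.99 points (−13.0 to −0.49). Of the 462 shared control peaks, both treatments kept 60, or 13.0% (10.2 to 16.4), against 9.64% on 5p and 9.56% over the whole list. Neither kept 373, or 80.7%, against 81.2% on 5p and 83.0% over the whole list. The list labelled siTEAD4 alone kept 15, or 3.25%, against 5.08% on 5p and 4.46% over the whole list. The XMU-MP-1 list alone kept 14, or 3.03%, against 4.06% and 3.02%. The median control fold was 15.1 at the 60 and 6.33 at those kept by neither. Of the 81 peaks labelled siTEAD4 on 5q, 62 had an XMU-MP-1 peak, or 76.5%, against 66.0% over the whole list. On 5p, 20 of 32 did, or 62.5%. The difference was 14.0 points (−3.80 to 33.0) for 5q minus 5p and 11.1 points (0.54 to 19.3) against all such peaks off 5q. Of the 82 XMU-MP-1 peaks, 62 had a peak labelled siTEAD4, or 75.6%, against 72.3% over the whole list. Against XMU-MP-1 peaks off 5q this differed by 3.50 points (−7.03 to 11.8).

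Nearly every peak of a treated list overlapped a peak of its control or vehicle counterpart. On 5q, 77 of 81 peaks labelled siTEAD4 had a control peak, or 95.1%, against 96.3% in the whole list, and 76 of 82 XMU-MP-1 peaks had a vehicle peak, or 92.7%, against 95.7%. Across the pairs, 78 of the 81 had a vehicle peak, or 96.3%, against 97.4% in the whole list, and 77 of the 82 had a control peak, or 93.9%, against 95.5%. The strongest of the 4 exceptions labelled siTEAD4, chr5:180648670-180649462, had a fold of 10.9 in that list, 10.0 with XMU-MP-1, 4.60 with vehicle and 27.5 for TEAD. The weakest, chr5:150458515-150458747, had a fold of 4.04 and a vehicle peak of 5.48. The strongest of the 6 XMU-MP-1 peaks with no vehicle peak, chr5:176036263-176036801, had a fold of 7.30, with 6.53 in the list labelled siTEAD4 and 5.42 in the control list.

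The overlap of p65 with TEAD was higher in the treated lists than in the control and vehicle lists, on 5q as elsewhere. On 5q, 62 of 81 peaks labelled siTEAD4 had a TEAD peak, or 76.5% (66.2 to 84.4), against 71.6% in the whole list. Of the control peaks on 5q, 292 of 595 did, or 49.1%, against 47.4%. Of the XMU-MP-1 peaks, 66 of 82 had one, or 80.5% (70.6 to 87.6), against 75.2%. Of the vehicle peaks, 341 of 687 did, or 49.6%, against 45.6%. The TEAD list came from XMU-MP-1 cells alone, so it does not show TEAD binding in the control, vehicle or siTEAD cells.

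On 5p the shares were 29 of 32 labelled siTEAD4 (90.6%), 130 of 245 control (53.1%), 26 of 28 XMU-MP-1 (92.9%) and 136 of 267 vehicle peaks (50.9%). In all 4 lists the value on 5q was the lower one, by 14.1 points labelled siTEAD4 (−26.1 to 2.73 as the difference of 5q minus 5p), 3.99 control (−11.3 to 3.44), 12.4 XMU-MP-1 (−23.5 to 4.69) and 1.30 vehicle (−8.31 to 5.74). Every interval of 5q minus 5p included 0. Against all peaks off 5q, the share on 5q was the higher one in all 4 lists. The differences were 5.18 points labelled siTEAD4 (−5.33 to 13.4), 1.75 control (−2.33 to 5.83), 5.57 XMU-MP-1 (−4.51 to 13.0) and 4.17 vehicle (0.37 to 7.98). The lists share sites, so neither common direction is 4 separate observations.

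**Figure D3:**
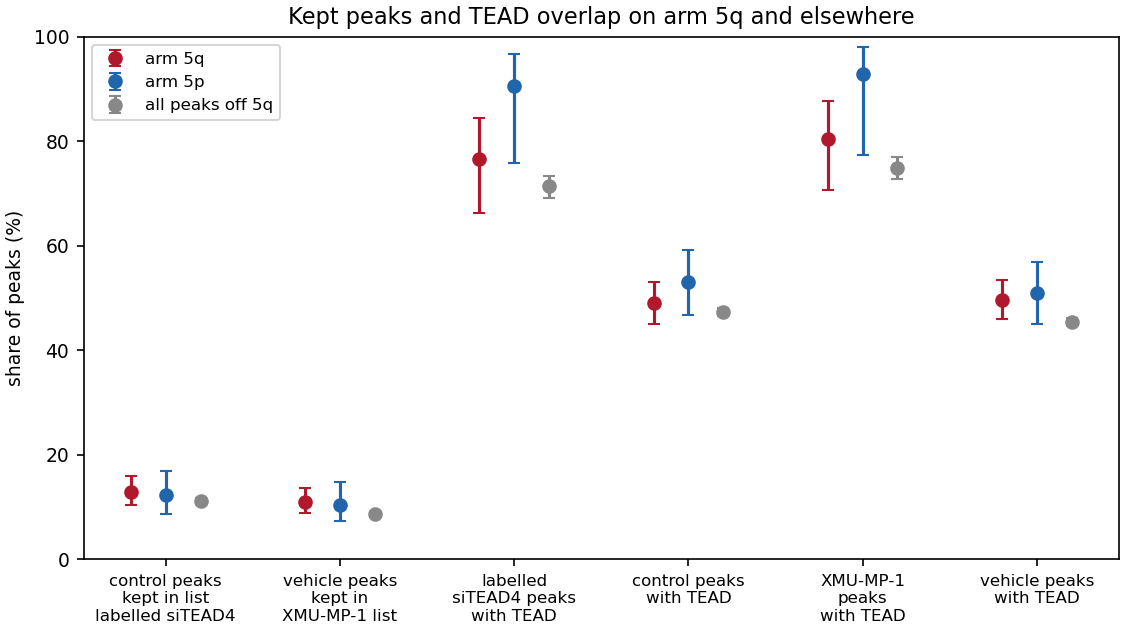
Share of peaks (%) kept in a treated list, and share with a TEAD peak, on arm 5q, on arm 5p and over all peaks off 5q, with 95% Wilson intervals. The kept shares of 5q and 5p lie between 10.5% and 12.9%, and the intervals of 5q and 5p overlap in every pair.

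Within 5q the overlap was uneven. Beyond 100 Mb, 51.7% of control peaks had a TEAD peak and to 100 Mb 38.5%, a difference of 13.2 points (3.12 to 22.6). In the vehicle list it was 51.7% beyond and 41.7% to 100 Mb, a difference of 10.1 points (0.90 to 18.9). Read from TEAD, 33.8% of its peaks beyond 100 Mb had a control p65 peak and 19.9% of those to 100 Mb did, a difference of 13.9 points (7.33 to 19.8). For vehicle p65 peaks it was 38.4% and 26.5%, a difference of 11.8 points (4.78 to 18.2). Read from p65, the short lists did not show this, with 11 peaks each to 100 Mb. Labelled siTEAD4, 53 of 70 peaks beyond 100 Mb had a TEAD peak, or 75.7%, and 9 of 11 to 100 Mb, or 81.8%. The difference was −6.10 points (−23.3 to 24.6). With XMU-MP-1 it was 57 of 71, or 80.3%, and 9 of 11, or 81.8%, a difference of −1.54 points (−18.4 to 28.9). From the TEAD side, 7.95% of its peaks beyond 100 Mb had an XMU-MP-1 p65 peak and 3.98% of those to 100 Mb did. That difference was 3.96 points (0.13 to 6.84). For p65 peaks labelled siTEAD4 the shares were 7.40% and 3.98%, a difference of 3.41 points (−0.39 to 6.25). In the control and vehicle lists the stretch with fewer peaks per Mb and a lower background had less overlap, and the part of density and background in it was not tested.

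Over the whole arm, 63 of the 956 TEAD peaks had a peak labelled siTEAD4, or 6.59%, against 5.50% of all TEAD peaks. A control peak was present at 292, or 30.5%, against 30.9%. An XMU-MP-1 peak was present at 67, or 7.01%, against 5.26%, and a vehicle peak at 340, or 35.6%, against 34.5%. Against TEAD peaks off 5q, the difference was 1.82 points (0.34 to 3.64) for XMU-MP-1. It was 1.13 (−0.30 to 2.91) labelled siTEAD4, −0.41 (−3.31 to 2.64) for control and 1.15 (−1.89 to 4.30) for vehicle. On 5p the shares were 7.97% labelled siTEAD4, 35.4% control, 7.14% XMU-MP-1 and 36.3% vehicle, and every interval of 5q minus 5p included 0.

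Peaks of p65 with a TEAD peak were kept more often than those without one. On 5q, 61 of 292 control peaks with TEAD were kept in the list labelled siTEAD4, or 20.9%, and 16 of 303 without TEAD, or 5.28%, a difference of 15.6 points (10.3 to 21.0). On 5p the difference was 19.8 points (12.2 to 27.7), and over all peaks off 5q 11.3 points (10.3 to 12.3). With XMU-MP-1, 64 of 341 vehicle peaks with TEAD on 5q were kept, or 18.8%, and 12 of 346 without, or 3.47%, a difference of 15.3 points (10.8 to 20.0). The 5p difference was 17.6 points and that off 5q 11.1 points (10.3 to 12.0). Median control folds on 5q were 6.31 with and 6.12 without TEAD, and median vehicle folds 5.90 with and 6.03 without. A median does not show how many of the strongest peaks, which were kept most often, each group held. The part of peak strength in these kept shares was not tested.

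Where control or vehicle p65 peaks overlapped TEAD peaks, fewer pairs had summits within 50 bp of each other on 5q than on 5p, a difference that did not hold beyond counting error under every limit tried. In the control list, 116 of 292 pairs on 5q had summits within 50 bp of each other, or 39.7% (34.3 to 45.4), with a median distance of 68 bp. On 5p, 70 of 130 did, or 53.8% (45.3 to 62.2), with a median of 49 bp. The difference was −14.1 points (−24.1 to −3.83). In the vehicle list, 119 of 341 pairs on 5q lay within 50 bp, or 34.9% (30.0 to 40.1; median 67 bp), and on 5p 65 of 136, or 47.8% (39.6 to 56.1; median 54 bp), a difference of −12.9 points (−22.6 to −3.17).

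Off 5q as a whole, 46.1% of control pairs and 44.0% of vehicle pairs lay within 50 bp. The share on 5q was lower by 6.34 points (difference of −11.9 to −0.51) in the control list and by 9.09 points (−14.1 to −3.78) in the vehicle list. Beyond and to 100 Mb the share was close, at 39.3% and 42.2% for control and at 34.5% and 36.7% for vehicle. In the short lists 20 of 62 pairs labelled siTEAD4 lay within 50 bp on 5q, or 32.3% (21.95 to 44.6), against 16 of 29 on 5p, or 55.2%, a difference of −22.9 points (−42.3 to −1.38). With XMU-MP-1 it was 24 of 66 on 5q, or 36.4% (25.8 to 48.4), against 12 of 26 on 5p, or 46.2%, a difference of −9.79 points (−31.0 to 11.4). Summits of overlapping control and vehicle peaks, which measure the same protein, were a median of 31 bp apart on 5q and 29 bp on 5p. The 50 bp limit was chosen with the distances known. The interval of the difference reached 0 for control peaks at a −log10 q of at least 10 (−17.4 points, −34.2 to 0.67) and with a limit of 100 bp (−9.03, −17.6 to 0.48). It did so for vehicle peaks at a −log10 q of at least 5 (−11.1, −23.0 to 0.88) and of at least 10 (−8.24, −24.9 to 8.81).

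**Figure D4:**
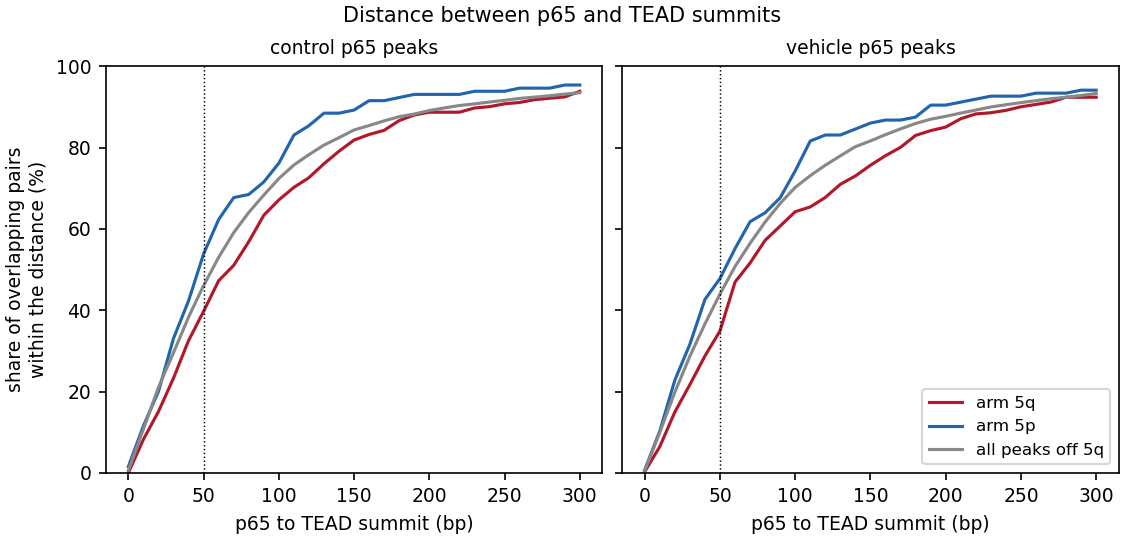
Cumulative share (%) of overlapping p65 and TEAD peak pairs whose summits lie within a given distance (bp), for control and vehicle p65 peaks on arm 5q, on arm 5p and off 5q. At 50 bp, marked by the dotted line, the 5q curve is at 39.7% (control) and 34.9% (vehicle), and the 5p curve at 53.8% and 47.8%.

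Single sites show what the counts hold. The strongest control peak of the arm, chr5:114786235-114786857, had folds of 14.7 in the list labelled siTEAD4, 39.3 in the control, 23.8 with XMU-MP-1 and 28.0 with vehicle. Its pileups were 79 labelled siTEAD4, 126 control, 83.8 XMU-MP-1 and 146 vehicle. The lists give no read totals and their pileups are in different steps, so these pileups show no change between lists. The same site held the strongest peak of both treated lists on 5q. The second strongest, chr5:179245750-179246620, had folds of 13.8 labelled siTEAD4, 34.8 control, 8.39 XMU-MP-1 and 41.1 vehicle. No TEAD peak was called at either of these p65 sites.

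The third, chr5:159894276-159895402, had 12.5 labelled siTEAD4, 30.0 control, 23.0 XMU-MP-1 and 23.2 vehicle, with a weak TEAD peak of 4.61. The next, chr5:124271525-124272055, had 6.52 labelled siTEAD4, 29.0 control, 7.49 XMU-MP-1 and 21.1 vehicle, with TEAD at 15.0. The fifth, chr5:131833211-131834362, had 8.92 labelled siTEAD4, 27.5 control, 10.4 XMU-MP-1 and 28.8 vehicle, with TEAD at 16.7. All 5 were called in all 4 p65 lists. A site in all 5 lists was chr5:131430052-131430796 as called in the list labelled siTEAD4, with 12.8 there, 19.7 control, 11.8 XMU-MP-1 and 20.4 vehicle, and with a TEAD peak.

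The 5 TEAD peaks of highest fold on the arm had a weak peak in 1 p65 list or none. The first, chr5:140098163-140099016, had a TEAD fold of 52.0 and a vehicle p65 peak of 3.14, with no other p65 peak. The second, chr5:172329587-172330507, had 44.1 for TEAD and a control p65 peak of 5.94 alone. The next, chr5:180633596-180634351, chr5:180618389-180619036 and chr5:180634502-180635076, had TEAD folds of 43.6, 41.9 and 40.4 and no p65 peak in any list. These last lay close together near the end of the arm. TEAD without p65 was not confined to these peaks. When overlapping peaks of all lists were merged, 566 sites on 5q were called for TEAD alone, or 41.0%, and 387 for both, or 28.0%. Over the whole series these shares were close, at 40.3% and 26.3%.

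**Figure D5:**
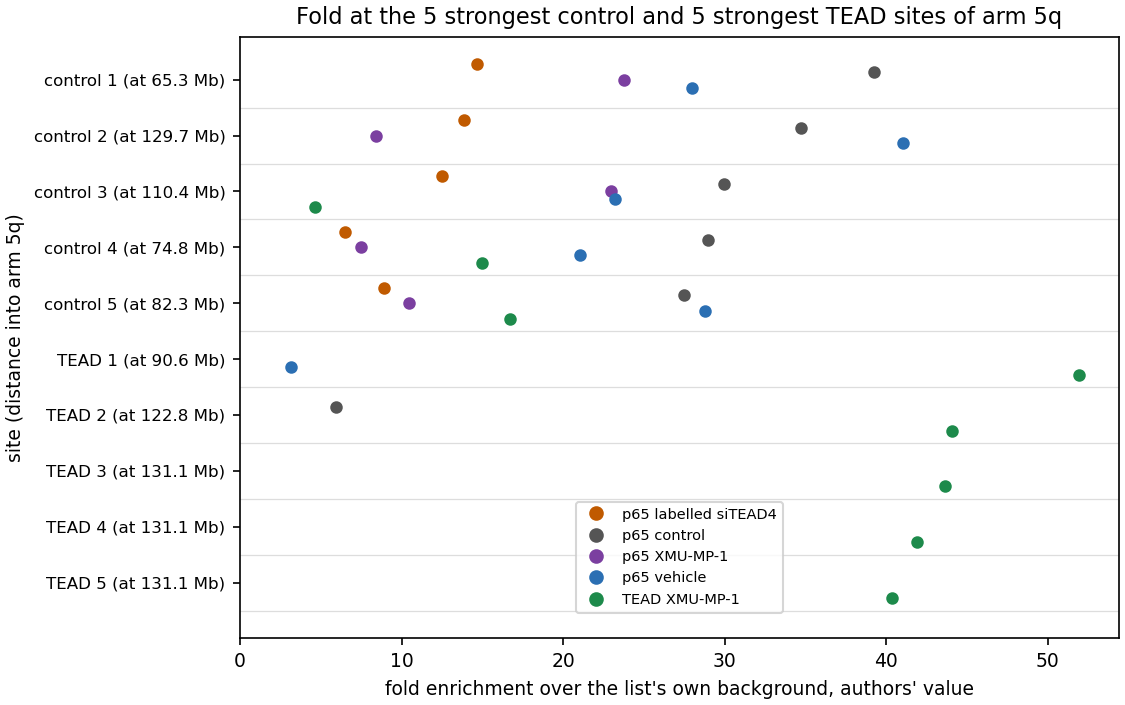
The authors' fold enrichment in each list, over that list's own background, at the 5 control peaks and the 5 TEAD peaks of highest fold on arm 5q. A missing point means that no peak was called there. The control sites have points in all 4 p65 lists, and the TEAD sites have at most 1 p65 point, at 5.94 or below.

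Some strong peaks were lost. The strongest control peak of 5q with no peak labelled siTEAD4 was chr5:59042073-59042640, with folds of 19.1 control, 18.2 vehicle and 6.62 TEAD. The others among the top 5 lost control peaks had control folds between 16.0 and 18.9, and none of the 5 had an XMU-MP-1 peak. The strongest vehicle peak lost from the XMU-MP-1 list, chr5:172571192-172571607, had a vehicle fold of 24.2, and the control peak at that site had 17.5. The next, chr5:67618407-67618955, had 24.1 with vehicle, 5.39 in the list labelled siTEAD4 and 4.32 for TEAD. Of the top 5 lost vehicle peaks, 3 had a peak labelled siTEAD4, with folds of 5.39, 7.11 and 4.67. Among the shared control peaks of any fold, 15 were kept in the list labelled siTEAD4 alone, beside the 373 kept in neither.

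Merging overlapping peaks of all lists gave 1380 sites on 5q. Of these, 566 (41.0%) were called for TEAD alone, 427 (30.9%) for p65 alone and 387 (28.0%) for both. On 5p the same shares were 41.0%, 30.9% and 28.2% of 525 sites, and over the whole series 40.3%, 33.3% and 26.3% of 35117 sites. All 5 lists met at 48 sites on 5q, or 3.48% (2.63 to 4.58), at 18 on 5p, or 3.43%, and at 2.56% of the sites of the whole series. A further 11 sites on 5q had all 4 p65 lists and no TEAD peak, or 0.80%, against 0.77% over the whole series. A treated p65 peak with neither control nor vehicle was present at 3 sites, or 0.22%, against 0.20%. Both shares were close to those of the whole series.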

How the data were processed

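Each of the 5 immunoprecipitates from 786-O cells has 1 peak list; the 4 input libraries were not analysed here. The submitters' processing notes name fastp, Bowtie2 2.4.5, MACS2 and hg19. The MACS2 version, its settings and the input behind each list were not given in the sources used here. Per peak, the authors deposited a fold enrichment (a ratio over local background), a −log10 p-value, a −log10 q-value, a score (not used) and a summit offset in bp. Peak numbers skip between 7 and 147 values per list, and the lowest −log10 q was between 1.31 and 1.55 in 4 lists and 1.30 in the vehicle list.

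Members and comparisons were chosen with earlier results of these data known. Peaks overlapped when they shared at least 1 bp. Arm lengths are those of hg19, with textbook centromere bounds for the arms other than 5q and 5p. Pileup and background were solved from fold and p under the MACS2 formulas (pseudocount of 1, Poisson tail), to within 0.005 of the −log10 p for every peak on chromosome 5. Pileups were multiples of 0.587 in the control and 0.783 in the XMU-MP-1 list and whole numbers in the other lists. Shares have Wilson, differences Newcombe, densities exact Poisson and density ratios conditional exact intervals. Named sites are the 5 of highest fold per list, the 5 of highest fold lost, and treated peaks with no counterpart in their control or vehicle list. The code (Python 3.11.15, numpy 2.4.6, pandas 2.3.3, scipy 1.17.1, matplotlib 3.10.9) was tested on simulated peaks. Alternatives were stricter q limits, other overlap rules, other limits on summit distance, shares standardised to equal deciles of fold or of −log10 q, and stretches left out. No gene, motif or sequence was read at the peaks, since the reference tables are on GRCh38.p14.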

Additional observations from a re-analysis of the deposited data

How the results depend on the processing

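Of 91 alternatives over 14 results, 88 kept the value within its reported interval or on its side of no difference. Comparing the stretch of 5q beyond 100 Mb with 5p, chosen after seeing the data, turned the control density ratio to 1.12, against 0.857 for the whole arm, and moved the vehicle and TEAD ratios to 1.17 and 1.15. It gave 1.25 labelled siTEAD4, against 0.894, and 1.45 with XMU-MP-1, against 1.03. These 2 count among the 88 because the intervals of the short lists are wide. Leaving the window from 170 to 175 Mb out of 5q alone gave 0.802 for control, 0.855 for vehicle and 0.876 for TEAD; taking the fullest window from one arm lowers the ratio by construction. No q limit, overlap rule or stretch left out moved the interval of a 5q minus 5p difference in kept shares or TEAD overlap off 0. Standardising to equal deciles of fold, which gives no interval, turned the kept differences to −0.53 points for control, against 0.70, and −0.10 for vehicle, against 0.58; equal deciles of −log10 q, chosen after seeing the data, gave 2.93 and 2.77, and 0.34 for vehicle TEAD overlap, against −1.30. The summit differences kept their sign under alternatives all chosen after seeing the data. No paired analysis was possible because no condition has a second library. Gene lists, motifs and density per gene were not run. The short lists have 28 to 82 peaks per arm, which leaves 5q minus 5p intervals in TEAD overlap as wide as −26.1 to 2.73 points.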

Other observations

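When p65 control peaks with summits up to 12.5 kb apart were joined, a distance chosen with the data known, 433 regions resulted on 5q, of which 10 held at least 5 peaks and 346 held 1. On 5p 175 regions resulted, of which 1 held at least 5 peaks and 130 held 1, and gaps within that distance were 27.3% of all gaps on 5q and 28.7% on 5p. Joined regions were not counted over the whole series, so no share of all regions stands beside these counts. The same region came first in all 4 p65 lists, chr5:150439513-150474514, a stretch of 35.0 kb. It held 9 peaks labelled siTEAD4 against 13 control peaks, 8 XMU-MP-1 against 13 vehicle peaks, and 12 TEAD peaks. Of the 13 control peaks 9 were kept in the list labelled siTEAD4 and 10 had a TEAD peak, and of the 13 vehicle peaks 8 were kept with XMU-MP-1 and 9 had a TEAD peak. The highest folds in it were 8.94 labelled siTEAD4, 21.6 control, 13.8 XMU-MP-1, 23.4 vehicle and 11.1 TEAD. The 5 Mb window around it, from 150 to 155 Mb, kept 11 of 29 control peaks in the list labelled siTEAD4, or 37.9% (22.7 to 56.0), and 8 of 35 vehicle peaks with XMU-MP-1, or 22.9% (12.1 to 39.0). The fullest window, from 170 to 175 Mb, kept 4 of 60, or 6.67% (2.62 to 15.9), and 6 of 65, or 9.23%. Both windows were picked after their values were seen.

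The TEAD list had its largest joined region at chr5:149838459-149897476, 59.0 kb with 14 TEAD peaks, a highest TEAD fold of 35.5, and 3 p65 peaks labelled siTEAD4 against 8 control, and 4 XMU-MP-1 against 10 vehicle. Near the end of the arm, the joined regions chr5:180579343-180619036 and chr5:180633596-180650441 held 8 and 5 TEAD peaks. The first held 1 vehicle p65 peak with a fold of 4.06 and no other p65 peak. The second held 1 peak labelled siTEAD4 with a fold of 10.9 and no control peak, and 2 XMU-MP-1 peaks with folds up to 10.0 against 2 vehicle peaks with folds up to 6.29. At chr5:172328052-172371329, 8 control and 5 vehicle peaks lay beside 8 TEAD peaks, and 1 peak labelled siTEAD4 and 1 XMU-MP-1 peak were called there.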
